A study of Mus musculus with 28 samples.

Results

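The interleukin-12 (IL-12) family is a small group of secreted cytokines, each built from a pair of different chains. The 5 genes examined, out of 40021 genes in the deposited table, were chosen by name as those encoding the chains of this family: Il12b and Ebi3, which encode the β chains, and Il12a, Il23a and Il27, which encode the α chains. The β chain p40, made from Il12b, pairs with p35 (Il12a) to give IL-12 and with p19 (Il23a) to give IL-23. The β chain EBI3 pairs with p28 (Il27) to give IL-27 and with p35 to give IL-35. IL-12 and IL-23 are made by myeloid cells that sense bacterial products and are known for driving interferon-γ and IL-17 producing lymphocytes, whereas IL-27 and IL-35 are better known for restraining such cells. In the eye, these cytokines are studied because interferon-γ and IL-17 producing T cells can cause uveitis.

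Values came from microglia of 28 single retinas of male mice on a C57BL/6 background, all heterozygous for Cx3cr1CreER and the R26-tdTomato reporter. In these mice a tamoxifen-activated Cre under the control of the fractalkine receptor gene turns on a red fluorescent protein. Tamoxifen drops were given for 3 days at 4 to 5 weeks of age to every group, naïve mice included, and lipopolysaccharide (LPS), a toll-like receptor 4 ligand, was injected into the vitreous 4 weeks later at 10 ng per eye to cause endotoxin-induced uveitis (EIU). Live cells with a high reporter signal were sorted, 600 per retina, and amplified cDNA was sequenced. The groups held 10 naïve retinas, 6 taken 4 h after LPS, 5 taken after 18 h and 7 taken after 2 weeks, collected in 2 experiments (6, 3, 4 and 4 retinas in experiment 1 and 4, 3, 1 and 3 in experiment 2). No group was injected with vehicle alone, so effects of LPS and of the injection itself cannot be told apart. Each change after LPS given below is a difference between injected and naïve mice or between times after injection. The labels do not tie retinas to mice, so retinas of one mouse may both be present, and every p-value measures the spread between retinas. The reporter marks cells that carry the recombined allele, and the study found part of the microglia tagged without any tamoxifen. By flow cytometry, also at 18 h, it reported high specificity of the signal for microglia under this tamoxifen regime.

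The authors deposited RPKM values, in which the reads of a gene are divided by the length of its transcript and by the depth of the library, so levels of different genes can be set side by side. Retinas had between 7510000 and 19700000 alignments, and between 6552 and 11825 genes reached 1 RPKM. In 4 retinas fewer than 7500 genes reached it (naïve 3, naïve 4, EIU 18 h 4 and EIU 2 weeks 1), a limit set after the data were seen, and results are also given without them. At these depths 1 read was worth an estimated 0.0261 to 0.0685 RPKM for Il12b, 0.0373 to 0.0979 RPKM for Il23a and 0.0497 to 0.130 RPKM for Il27, depending on the retina. None of 280 values of 10 housekeeping genes was 0, although 1 of these genes had a value of 0.0318 RPKM in a retina. Genes with at least 1 RPKM in at least 5 of the 28 retinas, 13164 in all, were tested with limma on log2(RPKM + 1). Of the family, Il12b, Ebi3, Il27 and Il23a passed this filter, and Il12a, with 4 such retinas, did not. Il23a passed through 5 retinas, all at 4 h, and Il12b through 11 retinas, of which 10 were at 4 h or 18 h. Both entered the test by being high in those groups. The number of members called, and the adjusted p of both genes in comparisons with those groups, are therefore descriptions and not evidence about the family.

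The defining markers of microglia were present in every retina. The sum of 8 such genes was 5308 to 12963 RPKM in naïve retinas, 1827 to 6347 at 4 h, 1695 to 5068 at 18 h and 6292 to 12358 at 2 weeks. Against naïve, 3 of the 8 were called as lower at 4 h and 6 at 18 h. Of all 13164 tested genes, 578 were called as lower at 4 h and 244 at 18 h. Transcripts of rod photoreceptors were also found in all groups, with a sum of 5 genes of 120 to 3641 RPKM. In sorted bulk samples, fewer cells of a type and less RNA per cell cannot be told apart.

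The promoters of Il12b and Ebi3, the β chain genes with the highest levels, are shown because both genes changed after LPS, and that of Il12a because its level stayed near 0 in nearly every retina. Il12b lies on the forward strand of chromosome 11 at 44400063 to 44414033 (GRCm38, GENCODE M21), Ebi3 on the forward strand of chromosome 17 at 55952640 to 55957022, and Il12a on the forward strand of chromosome 3 at 68690644 to 68698547. The sequences are RefSeq promoters of GRCm38.p6, from 250 bases before to 30 bases after the annotated start, at chr11:44399813-44400092, chr17:55952373-55952652 and chr3:68690394-68690673, all on the forward strand and written 5′ to 3′. Capitals mark matches, on either strand, to the NF-κB consensus, its shorter core TTCCC, the C/EBP core TTGCAA, the PU.1 core GAGGAA and the TATA box TATANAA.
Il12b: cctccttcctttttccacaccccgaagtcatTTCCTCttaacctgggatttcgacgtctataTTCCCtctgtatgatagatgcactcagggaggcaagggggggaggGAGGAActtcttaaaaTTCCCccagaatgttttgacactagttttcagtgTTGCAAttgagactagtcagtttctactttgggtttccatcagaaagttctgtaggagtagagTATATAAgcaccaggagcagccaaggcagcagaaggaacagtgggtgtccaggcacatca
Ebi3: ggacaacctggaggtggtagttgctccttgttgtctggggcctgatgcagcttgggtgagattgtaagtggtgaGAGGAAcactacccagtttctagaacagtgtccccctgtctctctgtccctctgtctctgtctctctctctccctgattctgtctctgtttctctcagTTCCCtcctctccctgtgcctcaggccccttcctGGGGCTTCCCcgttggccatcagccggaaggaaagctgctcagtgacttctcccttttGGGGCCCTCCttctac
Il12a: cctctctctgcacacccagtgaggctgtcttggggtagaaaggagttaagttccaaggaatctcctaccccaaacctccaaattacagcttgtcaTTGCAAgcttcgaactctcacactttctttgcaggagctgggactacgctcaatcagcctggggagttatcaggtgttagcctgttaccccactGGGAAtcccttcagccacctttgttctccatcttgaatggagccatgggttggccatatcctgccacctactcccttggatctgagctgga

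The Il12b promoter held 2 matches to the core TTCCC, which begin at −188 and −127 counted from the start, and a C/EBP core at −93. PU.1 cores began at −219 and −143, and a TATA box at −30. It held no match to the full NF-κB consensus. The Ebi3 promoter held 2 matches to the full consensus, at −44 and +15, and cores at −78 and −39, the latter inside the consensus match, with a PU.1 core at −176 and no TATA box. The first annotated start of Il12a had a TTCCC core at −61 and a C/EBP core at −155, and the other annotated start of this gene had a TTCCC core at +18. Among 32851 RefSeq mouse promoters cut to the same 280 bases, 7.94% held the NF-κB consensus, 60.1% the TTCCC core, 26.0% the PU.1 core, 11.0% the TATA box and 5.92% the C/EBP core. No match to the AP-1 motif TGANTCA (7.46% of promoters) or the interferon response motif GAAANNGAA (8.06%) was found in these windows. A match is a description of letters and was not tested as a binding site. Promoters of Il23a (chromosome 10, 128296139 to 128298752, reverse strand) and Il27 (chromosome 7, 126589010 to 126594941, reverse strand) were not analysed here.

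All 4 tested members were up-regulated 4 h after LPS, Il12b and Ebi3 were still up-regulated at 18 h, and no member was called at 2 weeks. A member was called where its fold change was 2 or more and its adjusted p did not exceed 0.05. For comparison, 3.68% of all tested genes were called as higher at 4 h, and 8.08% in either direction. At 18 h these shares were 2.84% and 4.69%, and at 2 weeks 0.0076% were called in either direction.

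**Figure D1:**
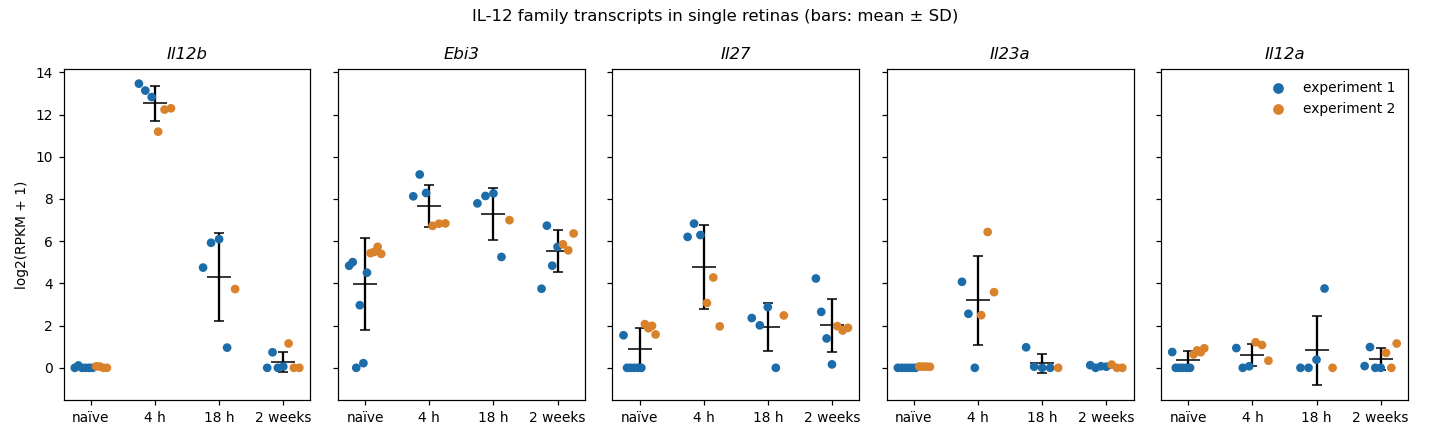
Level of the 5 transcripts as log2(RPKM + 1) in each of 28 retinas, by group and coloured by experiment, with bars at the mean ± SD. Il12b rose from 0 to 0.0799 RPKM in naïve retinas to 2333 RPKM or more in each retina at 4 h, Ebi3 stayed high at 18 h, and Il12a had 12.5 RPKM in EIU 18 h 4 and at most 1.32 RPKM elsewhere.

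Il12b, the p40 chain shared by IL-12 and IL-23, was close to absent in naïve retinas and among the most abundant transcripts at 4 h. Of 10 naïve retinas, 7 were listed at 0, and the highest value was 0.0799 RPKM, about 1 read. At 4 h the 3 retinas of experiment 1 had 11307, 9008 and 7271 RPKM and those of experiment 2 had 2333, 4823 and 5031 RPKM. Every 4 h retina lay above every naïve retina, as was true of 1.65% of tested genes. Il12b ranked between 5th and 27th of all genes within a 4 h retina and took 0.458% to 2.87% of the summed RPKM. The mean was 6629 ± 3232 RPKM (SD, n = 6), and the fitted log2 fold change was 12.50 ± 0.49 (standard error, limma adjusted p = 3.1e-18), which had the first place among rises of the 13164 genes. Since naïve values were at the level of single reads, this difference is on the log2(RPKM + 1) scale and understates the ratio. Its exact permutation p of 0.000125 was the smallest that 6 against 10 retinas can give.

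At 18 h, Il12b had values of 25.9, 59.7, 67.4 and 0.940 RPKM in experiment 1 and 12.3 RPKM in the single retina of experiment 2. All 5 lay above every naïve retina, as did 2.05% of tested genes at that time, and the lowest was the retina with few detected genes. The log2 fold change from naïve was 4.27 ± 0.51 (limma adjusted p = 1.2e-06), and without the 4 retinas of low detection it was 5.10 (adjusted p = 7.4e-10). From 4 h to 18 h, Il12b fell by 8.23 on the log2 scale (standard error 0.57, limma adjusted p = 9.8e-12), the first place among falls, and every 18 h retina lay below every 4 h retina, as was true of 2.79% of tested genes. At 2 weeks 4 of 7 retinas were listed at 0 and the others had 0.0428, 0.664 and 1.23 RPKM. The difference of these from naïve was 0.25 (95% interval −0.69 to 1.20, limma adjusted p = 1.0). The order of the groups was thus 4 h, 18 h, 2 weeks and naïve, of which 2 weeks and naïve did not differ beyond their spread, whereas 18 h exceeded 2 weeks (exact permutation p = 0.0025).

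Ebi3, the β chain of IL-27 and IL-35, had the highest level of the 5 members in most naïve retinas, and was up-regulated at both 4 h and 18 h. Naïve retinas of experiment 1 had 27.6, 31.2, 0, 6.81, 0.165 and 21.8 RPKM, and those of experiment 2 had 42.2, 43.9, 52.2 and 41.2 RPKM. The low values included the retinas listed with few genes, naïve 3 and naïve 4. At 4 h the retinas of experiment 1 had 278, 571 and 311 RPKM, and those of experiment 2 had 105, 113 and 114 RPKM, all above the highest naïve retina. At 18 h there were 221, 282, 307 and 37.1 RPKM in experiment 1 and 127 RPKM in experiment 2, so that 4 of 5 retinas lay above the naïve range and 1, with few detected genes, within it.

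The log2 fold change of Ebi3 from naïve was 3.70 ± 0.74 at 4 h (limma adjusted p = 0.00093) and 3.33 ± 0.79 at 18 h (limma adjusted p = 0.0090). The difference between 18 h and 4 h was −0.37, with a 95% interval from -2.15 to 1.41 (limma adjusted p = 0.90), so a fall or a rise of several fold was within the interval. At 2 weeks the lowest, median and highest values were 12.4, 52.1 and 106 RPKM, overlapping the naïve range. The difference from naïve at 2 weeks was 1.59 (limma unadjusted p = 0.033, adjusted p = 1.0), and 18 h exceeded 2 weeks by 1.74 (exact permutation p = 0.027). Without the 4 retinas of low detection, the differences were 3.08 at 4 h (limma adjusted p = 0.00073) and 3.22 at 18 h (adjusted p = 0.0036). In limma fits of each experiment, the 4 h rise of Ebi3 was 5.60 ± 1.05 in experiment 1 and 1.29 ± 0.21 in experiment 2. At 18 h the rise was 4.44 in experiment 1 and 1.48 in experiment 2, which had 1 retina at that time. At 2 weeks the difference from naïve was 2.34 in experiment 1 and 0.42 in experiment 2. The 4 h response of Ebi3 was lower in experiment 2 than in experiment 1 by the fit of all retinas (−4.31 ± 1.31). This difference was not called (limma adjusted p = 0.40). From gene start to gene end, introns included, Ebi3 overlaps the antisense gene Gm16712 by 2252 bases. The transcript of Ebi3 has 1154 bases, and the overlap of exons was not measured. Gm16712 rose at 4 h from 0 to 6.65 RPKM in naïve retinas to 5.81 to 32.7 RPKM. The library kit does not keep the strand, so reads over any shared exon bases cannot be assigned to one gene.

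**Figure D2:**
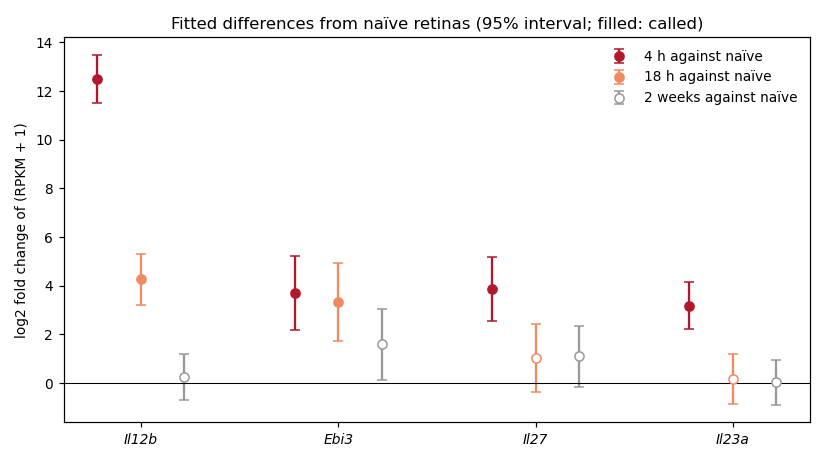
Fitted log2 fold change of (RPKM + 1) against naïve retinas, by time after LPS, for the 4 members tested, with the 95% interval and filled points for calls. Il12b rose by 12.50 at 4 h and 4.27 at 18 h, Ebi3 by 3.70 and 3.33, and Il27 (3.87) and Il23a (3.17) were called at 4 h and not at 18 h.

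Il27, the p28 chain that pairs with EBI3, was also up-regulated at 4 h, by an amount that differed between the experiments. Naïve retinas of experiment 1 were listed at 0 or practically 0 in 5 of 6 cases, with 1.91 RPKM in the other, and those of experiment 2 had 3.20, 2.67, 2.97 and 1.99 RPKM. At 4 h the values were 72.7, 113 and 77.4 RPKM in experiment 1 and 7.40, 18.4 and 2.90 RPKM in experiment 2. Of the 6 retinas, 5 lay above the naïve range, and the last, from experiment 2, within it. The log2 fold change was 3.87 ± 0.64 (limma adjusted p = 7.7e-05). It was 6.19 ± 0.77 in experiment 1 (adjusted p = 3.4e-05) and 1.23 ± 0.43 in experiment 2 (adjusted p = 0.074), each from a limma fit of that experiment. The test of this difference, in which 0.0988% of tested genes were called, gave −4.96 ± 0.98 (limma adjusted p = 0.034). This call was lost under several other settings, with adjusted p of 0.070 when no gene was filtered out, and when any 1 of 15 retinas was left out. Over all 28 such fits the adjusted p lay between 0.0096 and 0.22.

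At 18 h, Il27 had 4.12, 3.04, 6.36 and 0 RPKM in experiment 1 and 4.58 RPKM in experiment 2, with the 0 in the retina of low detection. The difference from naïve was 1.04 ± 0.68 (limma adjusted p = 0.46). Relative to 4 h, Il27 fell by 2.83 on the log2 scale (standard error 0.75, limma adjusted p = 0.020), but the groups overlapped, and without EIU 18 h 4 the adjusted p was 0.082. In experiment 1 alone the fall was 4.63 (limma adjusted p = 0.0040), and in experiment 2 alone, with 1 retina at 18 h, it was 0.62 (adjusted p = 0.65). The call was also lost with a pseudocount of 0.1 (limma adjusted p = 0.14), with no filter (0.070) and in a fit of these 2 groups only (0.055). Leaving out any 1 of the 3 retinas of experiment 1 at 4 h also ended the call, with limma adjusted p between 0.056 and 0.066. Without all 4 retinas of low detection the fall was 2.34, with an adjusted p of 0.037. At 2 weeks the lowest, median and highest values were 0.119, 2.72 and 17.8 RPKM, and the highest was in EIU 2 weeks 1, a retina of low detection. The difference from naïve was 1.10 ± 0.61 (limma adjusted p = 1.0, exact permutation p = 0.050), and it was 0.51 without the retinas of low detection. In limma fits of each experiment this difference was 1.85 ± 0.70 in experiment 1 and 0.000279 ± 0.43 in experiment 2. The groups at 18 h and 2 weeks did not differ beyond their spread (exact permutation p = 0.94). The last 103 bases of Il27 overlap the 3′ end of Apobr, whose mean was 0.413 to 1.27 RPKM in the 4 groups.

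Il23a, the p19 chain that makes IL-23 with p40, reached 1 RPKM in 5 retinas, all of them at 4 h. Naïve retinas were at 0 in experiment 1 and at 0.0340 to 0.0422 RPKM, about 1 read, in experiment 2. At 4 h there were 15.9, 4.90 and 0 RPKM in experiment 1 and 4.63, 85.6 and 11.0 RPKM in experiment 2. Of 6 retinas, 5 exceeded the naïve range, and the retina at 0 had 7271 RPKM of Il12b. The log2 fold change was 3.17 ± 0.47 (limma adjusted p = 1.6e-05), and 2.52 when the retina with 85.6 RPKM was left out. Because the gene entered the test only through its 4 h retinas, this adjusted p is a description. With no gene filtered out, Il23a was among the 4 members called at 4 h. On untransformed RPKM it was not called (limma adjusted p = 0.11). The retina with 85.6 RPKM carried the group mean, which was 20.3 ± 32.5 RPKM (SD, n = 6) beside a median of 7.95 RPKM. The interaction between time and experiment was 1.90 ± 0.90 (limma adjusted p = 1.0).

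At 18 h, Il23a was at 0.962, 0.0395 and 0 RPKM, the last in 3 retinas, and at 2 weeks it did not exceed 0.111 RPKM. It fell by 2.99 on the log2 scale from 4 h to 18 h (standard error 0.56, limma adjusted p = 0.00065). The filter limits this p-value in the same way. In experiment 1 alone the fall was 1.95 with an adjusted p of 0.12, and on untransformed RPKM the adjusted p was 0.20. The differences from naïve were 0.18 at 18 h (95% interval −0.84 to 1.21) and 0.04 at 2 weeks (95% interval −0.89 to 0.96). In the comparison of 18 h with 4 h, Il12b, Il27 and Il23a were called as lower, beside 2.51% of all tested genes in that direction and 5.42% in both.

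Il12a, the p35 chain of IL-12, showed no difference between groups that could be detected. Naïve retinas had 0 RPKM in 5 of 10 cases and otherwise 0.552 to 0.899 RPKM. At 4 h the values were 0.913, 0 and 0.0524 RPKM in experiment 1 and 1.32, 1.12 and 0.264 RPKM in experiment 2. At 18 h they were 0, 0, 0.304 and 12.5 RPKM in experiment 1 and 0 in experiment 2, and at 2 weeks 0 to 1.22 RPKM. The 12.5 RPKM came from EIU 18 h 4, the retina with few detected genes in which Il12b and Ebi3 were lowest of the group and Il27 was 0. The difference between 4 h and naïve was 0.22 on the log2 scale (exact permutation p = 0.37), and exact permutation p-values at 18 h and 2 weeks were 0.52 and 0.9. Without EIU 18 h 4 the difference at 18 h was −0.29 (exact permutation p = 0.24). In all, 30 exact permutation comparisons of a member between 2 groups were made, all two-sided and unadjusted.

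The chains that form a cytokine were unequal in amount in every retina at 4 h that allowed a ratio. Il12b exceeded Il12a by 1774 to 19058 times in the 4 retinas with enough Il12a for a ratio, and in the other 2 Il12a was at 0 or near 1 read. Il12b exceeded Il23a by 56.3 to 1839 times in 5 of 6 retinas, the other having no Il23a. Ebi3 exceeded Il27 in all 6 retinas, by 3.83 to 5.05 times in experiment 1 and 6.11 to 39.1 times in experiment 2. At 18 h, Ebi3 exceeded Il27 by 27.6 to 92.8 times in the 4 retinas with both transcripts. These are ratios of RPKM and say nothing of protein.

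The receptor chains through which these cytokines act were nearly absent from the sorted cells, apart from the one shared with other cytokines. Il12rb1, shared by the IL-12 and IL-23 receptors, did not exceed 0.252 RPKM in any retina. Il23r did not exceed 0.0472 RPKM and Il27ra 0.207 RPKM. Il12rb2, the signalling chain for IL-12, reached 1 RPKM in 3 of 28 retinas, with a maximum of 2.94 RPKM at 2 weeks. Il6st (gp130), which serves IL-27, IL-6 and other cytokines, was above 1 RPKM in all 28 retinas. It went from a median of 5.70 RPKM in naïve retinas (range 5.23 to 27.2) to 2.67 RPKM at 4 h (2.04 to 3.57), where it fell by 1.16 ± 0.33 on the log2 scale (limma adjusted p = 0.021). Every 4 h retina lay below every naïve retina for Il6st, as was true of 1.42% of tested genes.

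Among 6 kinases and STAT factors downstream of these receptors, 5 were tested and 1, Jak2, rose at 4 h. Jak2, a kinase bound to the IL-12 and IL-23 receptors, had a median of 2.72 RPKM in naïve retinas and 12.2 RPKM at 4 h (log2 fold change 2.24 ± 0.52, limma adjusted p = 0.0037). None was called at 18 h against naïve. Stat4, the main STAT factor of IL-12 signalling, reached 1 RPKM in 2 retinas, both at 4 h, and was not tested. Over the 5 genes the median was 0.72 (log2) at 4 h, beside −0.11 for all tested genes, of which 3.68% were called as higher.

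Of 21 genes that take part in sensing LPS or in switching on IL-12 family genes, 8 rose and 2 fell at 4 h. The median log2 fold change of the list was 1.34. Of 13164 tested genes, 485 were called as higher and 578 as lower at 4 h, and the median was −0.11. The gene lists were chosen with earlier results of these data known, so counts from them are descriptions. The genes of this list that rose were Batf, Cd14, Cd40, Cebpb, Irf1, Nfkb1, Nfkbiz and Rel. The response of Cd40 was called as lower in experiment 2 than in experiment 1 (−3.30 ± 0.63, limma adjusted p = 0.027). In that test 0.0988% of tested genes were called. Batf, an AP-1 family factor, rose most, from a median of 3.64 to 120 RPKM (log2 fold change 4.75 ± 0.64, limma adjusted p = 2.6e-06), and was the gene of this list called at 18 h (3.04 ± 0.68, adjusted p = 0.0052). Rel, the NF-κB subunit known to be needed for Il12b transcription in macrophages, had medians of 4.66, 39.2, 3.24 and 5.26 RPKM in naïve, 4 h, 18 h and 2-week retinas. The genes that fell at 4 h were Tlr4, the LPS receptor, and its partner Ly96. Tlr4 went from a median of 8.94 to 1.05 RPKM and fell by 2.15 on the log2 scale (standard error 0.43, limma adjusted p = 0.00097). Irf8, a factor tied to Il12b in myeloid cells, had a median of 15.1 RPKM in naïve retinas and 9.42 RPKM at 4 h (adjusted p = 0.46).

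**Figure D3:**
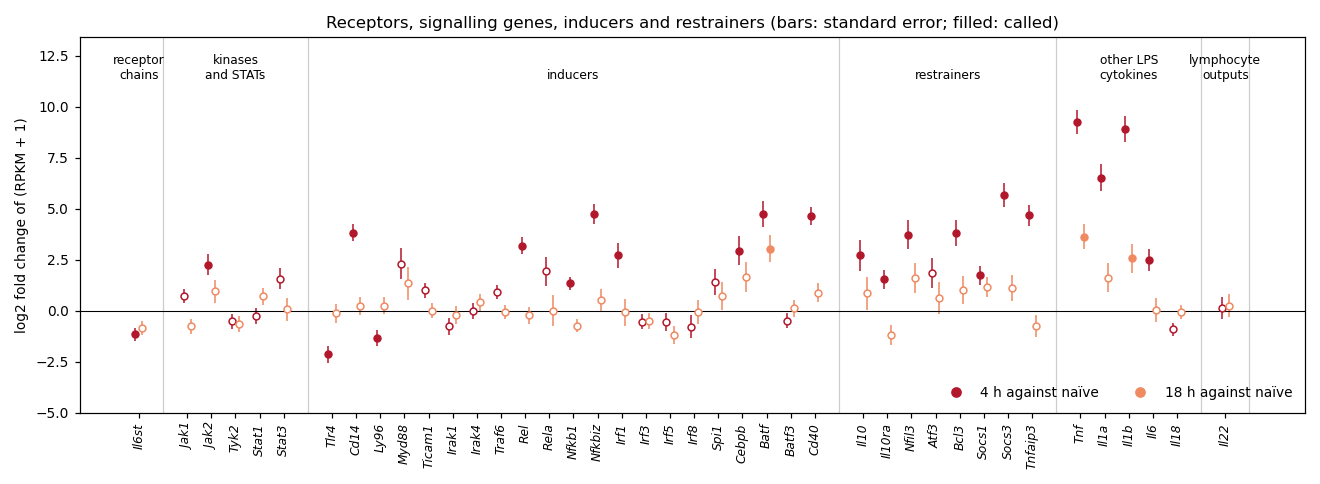
Fitted log2 fold change of (RPKM + 1) at 4 h and 18 h against naïve retinas for the tested genes of 6 pathway lists, with the standard error and filled points for calls. Of the restrainers 7 of 8 and of the other LPS cytokines 4 of 5 rose at 4 h, and at 18 h the calls were Batf, Tnf and Il1b. Of all tested genes 3.68% were called as higher at 4 h and 2.84% at 18 h.

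Genes known to limit IL-12 family expression or its signalling rose at 4 h as well, 7 of 8, with a median log2 fold change of 3.22. None of the 8 was called at 18 h. Of all tested genes 3.68% were called as higher at 4 h, and their median was −0.11. The restrainers that rose were Bcl3, Il10, Il10ra, Nfil3, Socs1, Socs3 and Tnfaip3. Socs3, an inhibitor of cytokine receptor signalling, rose most, from a median of 0.237 to 56.2 RPKM (log2 fold change 5.66 ± 0.59, limma adjusted p = 2.8e-08). Il10, whose product holds back Il12b in macrophages, was at 0 in 9 of 10 naïve retinas, and at 4 h its lowest, median and highest values were 0, 2.13 and 148 RPKM. Its log2 fold change was 2.72 ± 0.77 (limma adjusted p = 0.020). By the fit this response was higher in experiment 2 than in experiment 1 (4.82 ± 1.10), a difference that was not called (limma adjusted p = 0.090).

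Of 5 other cytokines of the LPS response, 4 rose at 4 h and 2 were called at 18 h. Of all tested genes 3.68% were called as higher at 4 h and 2.84% at 18 h. Tnf, Il1a, Il1b and Il6 rose at 4 h, and Il18 did not pass the test (median 45.4 RPKM in naïve and 27.9 RPKM in 4 h retinas, adjusted p = 0.077). Tnf had a median of 0.364 RPKM in naïve retinas, 1514 RPKM at 4 h and 21.2 RPKM at 18 h, with log2 fold changes of 9.26 ± 0.58 at 4 h (limma adjusted p = 4.6e-13) and 3.62 ± 0.61 at 18 h (adjusted p = 0.00026). The median for the 5 genes was 6.52 at 4 h and 1.62 at 18 h.

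Of 7 lymphocyte genes that IL-12 and IL-23 are known to induce, 6 were in the table and 1, Il22, was tested. Ifng was at 0 in all 28 retinas. Il22 was not called at any time, with medians of 0.164, 0.178, 0 and 0.826 RPKM in naïve, 4 h, 18 h and 2-week retinas, the third being 0 or practically 0. Its highest values were 1.75 RPKM in naïve retinas, 2.81 RPKM at 4 h, 9.58 RPKM at 18 h and 27.3 RPKM at 2 weeks. Tbx21, the T-bet factor of interferon-γ producing lymphocytes, was at 0 in every naïve and 4 h retina, had 2.62 RPKM in 1 retina at 18 h and 0 in the other 4 of that group, and did not exceed 0.0823 RPKM at 2 weeks. Il17f and Il21 did not reach 1 RPKM in any retina.

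Marker sums of other leukocytes differed between the groups as well. At 4 h, the sum of 7 dendritic cell genes was 32.9 to 318 RPKM, against 2.35 to 96.8 RPKM in naïve retinas. Ccr7 (15.9 to 180 RPKM at 4 h, 0 in every naïve retina) and Fscn1 made up most of it, and both are also made by activated myeloid cells. Of the more restricted dendritic cell genes, Clec9a was at 0 in every 4 h retina, Flt3 did not exceed 0.236 RPKM, Xcr1 0.978 RPKM and Cd209a 0.573 RPKM, and Zbtb46 reached 6.84 RPKM. Neutrophil genes were at or near 0 at 4 h (sum of 6 genes at most 0.125 RPKM), and the sum of 5 monocyte genes was 0.0505 to 15.5 RPKM.

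At 18 h, the sum of 5 T and NK cell genes was 10.9 to 86.5 RPKM, against at most 0.752 RPKM in naïve and 0.185 RPKM in 4 h retinas. Nkg7 led it with a median of 12.1 RPKM, and was the 1 gene of the 5 that passed the filter. In the 18 h group 3 of the 5 genes reached 1 RPKM in at least 1 retina. Neutrophil genes summed to 0 to 16.2 RPKM and monocyte genes to 0.228 to 49.5 RPKM at 18 h. The 4 B cell genes did not exceed 2.33 RPKM at 18 h. The retina with the highest T and NK cell sum, EIU 18 h 4, was the one with 12.5 RPKM of Il12a. Whether such cells were present, and their part in the levels of Il12b, Ebi3 and Il12a at 18 h, was not tested.

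**Figure D4:**
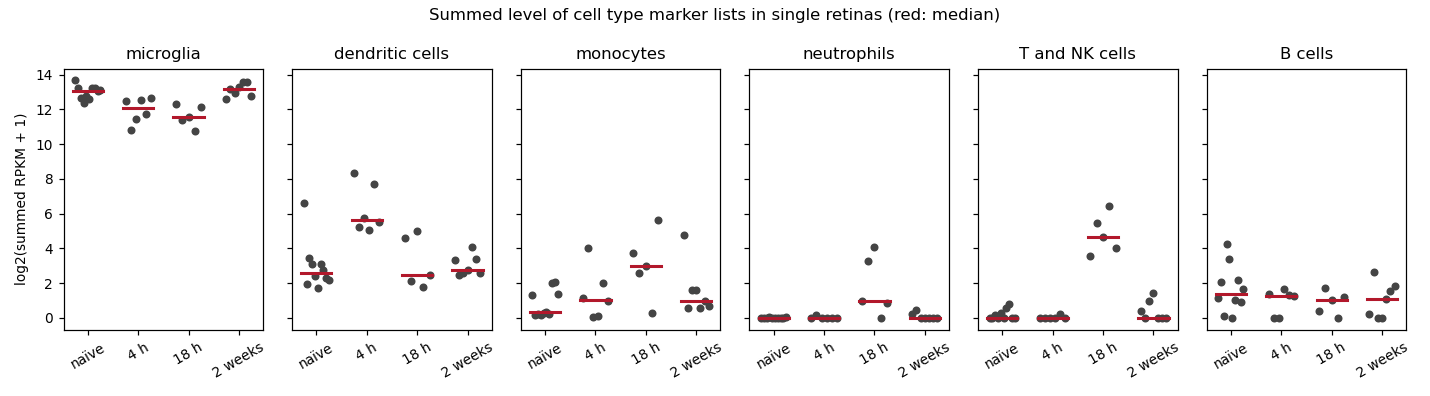
Summed RPKM of 6 marker lists as log2(sum + 1) in each of 28 retinas, by group, with a red line at the median. The T and NK cell sum lay between 10.9 and 86.5 RPKM at 18 h and at or below 1.70 RPKM in the other groups, and microglia genes had the highest sums in all groups.

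The genes with the levels most like each member over the 28 retinas are given as a description, since the levels share their libraries and their time groups. For Il12b these were Tnfsf9 (Pearson r = 0.967), Cd69 (0.967), Exoc3l4 (0.960), Gm45184 (0.959) and Ccr7 (0.956). Tnfsf9 encodes the ligand of the costimulatory receptor 4-1BB, and Ccr7 a receptor that guides migration to lymph nodes. Within the 6 retinas at 4 h, r was 0.966 for Tnfsf9, 0.854 for Exoc3l4, 0.422 for Gm45184, 0.372 for Ccr7 and −0.285 for Cd69. For Ebi3 they were Il2rg (0.909), Gm12250 (0.883), Batf (0.873), Gbp2 (0.834) and Tfpt (0.831), which include the common cytokine receptor chain and interferon-inducible GTPases. Within the 4 h retinas r for these genes lay between 0.687 and 0.926.

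For Il27 the 5 genes were Fas (0.939), Zc3h12c (0.874), Mx2 (0.873), Sp140 (0.868) and Cd40 (0.861), with r between 0.697 and 0.989 within the 4 h retinas. Fas is a death receptor and Mx2 an interferon-induced GTPase, and Cd40 receives T cell help. For Il23a they were AC121567.1 (0.931), Gm45774 (0.930), Cxcl2 (0.929), Il1r2 (0.903) and Slc7a11 (0.881), with r between 0.778 and 0.899 within the 4 h retinas. Cxcl2 encodes a neutrophil-attracting chemokine and Il1r2 the decoy receptor of IL-1.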

How the data were processed

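Microglia were sorted from single retinas, and 75 nt single-end reads of SMART-Seq v4 cDNA were sequenced without strand information. Per the study's methods and the submitters' processing notes, the authors aligned reads to mm10 with STAR 2.5.3a, divided them among Ensembl 89 transcripts by expectation maximisation in Partek, and deposited 1 RPKM value per gene and retina. That step can share a read between overlapping genes, and very small values and zeros can be its products. The table gives alignments per retina, from 7510000 to 19700000, but no counts, so no counting interval is given. The deposited tables of the authors' own comparisons at 4 h and 18 h were not used.

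Groups came from the sample titles. The 13164 genes that reached 1 RPKM in 5 or more of the 28 retinas were fitted as log2(RPKM + 1) with limma 3.58.1 in R 4.3.3, all 4 groups in 1 fit, with the prior variance trended on the mean and p-values adjusted by Benjamini-Hochberg. A call needed a fold change of 2 or more and an adjusted p not above 0.05. The interaction of the 4 h response with experiment needed the adjusted p alone. Single members were compared by two-sided exact permutation over retinas. The fit was tested on simulated data. Sequences came from RefSeq (GRCm38.p6), with promoters for 3 of 5 members, and coordinates from GENCODE M21. Tables and figures used Python 3.11.15.

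The members and gene lists were chosen with earlier results of these data known. Genes named were the 5 members, the 5 receptor chains, the called gene with the largest rise and fall of each other pathway list at 4 h and 18 h, and the 5 genes most correlated with each member. Other genes, including Rel, Irf8, Il10, Il18, Stat4 and Il22, and the values of markers, were added after their values were seen. Alternatives covered pseudocounts, filters, covariates, a replicate block, single experiments, each retina left out, scaling and thresholds. Leaving out the 4 retinas in which fewer than 7500 genes reached 1 RPKM was chosen after seeing the data.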

Additional observations from a re-analysis of the deposited data

Results flagged for a closer look

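In 20 sets of values, each of 1 member in 1 group, the gap between the most extreme retina and the next was large relative to the range of the set in 2, by Dixon's 95% criterion on log2(RPKM + 1). Chance gives about 1 in 20 for normally distributed values. In both flagged sets 3 of 5 retinas were at 0, so that rate does not apply to them. Il12a stood at 12.5 RPKM in EIU 18 h 4, beside 0 to 0.304 RPKM in the other 4 retinas of that group. Il23a stood at 0.962 RPKM in EIU 18 h 1, beside 0 to 0.0395 RPKM in the others, and its difference from naïve at 18 h was not called with or without that retina.

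The 4 h response of Il27 differed between the experiments by a test of the difference itself, with −4.96 on the log2 scale for experiment 2 minus experiment 1 (limma adjusted p = 0.034). At 4 h the retinas of experiment 1 had 72.7 to 113 RPKM of Il27 and those of experiment 2 had 2.90 to 18.4 RPKM. The differences between experiments of Il12b, Ebi3 and Il23a were not called. The call of Il27 was lost when any of 15 single retinas was left out. The experiment also differs in naïve retinas, where 5 of 6 in experiment 1 were at 0 or practically 0 and the 4 of experiment 2 had 1.99 to 3.20 RPKM.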

How the results depend on the processing

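Of 946 values of single members under an alternative, 891 kept their direction and their side of the threshold, 34 lost a call, 1 gained one and 20 changed sign. Leaving out a retina of neither compared group cannot change a direction, and dropping the fold change minimum cannot end a call. Part of the 891 was therefore fixed in advance. The changes of sign all concerned differences that were not called. In experiment 2 alone, Il23a differed from naïve by −0.0556 (log2) at 18 h and −0.00495 at 2 weeks, Ebi3 by 0.20 between 18 h and 4 h, and Il12a by −0.78 at 18 h and −0.16 at 2 weeks from naïve and by −0.88 between 18 h and 4 h, which was −0.41 with a pseudocount of 0.1. With each retina left out in turn, the difference of Il23a at 18 h ranged from −0.00826 (without EIU 18 h 1) to 0.23, and that of Ebi3 between 18 h and 4 h from −0.61 to 0.14 (without EIU 18 h 4, as without the 4 retinas of low detection). That of Il12a ranged from −0.29 to 0.65 at 18 h and from −0.51 to 0.43 between 18 h and 4 h, the lowest without EIU 18 h 4, and from −0.0914 to 0.10 at 2 weeks.

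The number of members called at 18 h was 1 on untransformed RPKM, where Il12b had a limma adjusted p of 0.99, and the calls of Il23a at 4 h and between 18 h and 4 h were lost there too. The number of all genes called was 1063 at 4 h, 618 at 18 h and 714 between 18 h and 4 h. It was 416, 338 and 458 with a pseudocount of 10, 656, 308 and 332 at an adjusted p of at most 0.01, and 459, 232 and 202 in experiment 1 alone. In experiment 2 alone it was 165 at 18 h. The 1 gene called at 2 weeks became 0 on untransformed RPKM. Without the retinas of low detection 1241 genes were called between 18 h and 4 h. With each retina left out, 407 (without EIU 18 h 1) to 729 genes were called at 18 h, and 473 (without EIU 4 h 1) to 835 between 18 h and 4 h. Scaling to an equal summed RPKM moved the median of all genes from −0.11 to −0.28 at 4 h and from −0.08 to −0.26 at 18 h, and ended no call of a member.

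For the difference between experiments at 4 h, 13 genes and 1 member (Il27) were called. With a retina left out these were 1 (without EIU 4 h 6) to 38 (without EIU 4 h 1) genes and 0 to 1 members. They were 0 and 0 with a pseudocount of 0.1, 25 and 0 with no filter, 1 and 0 with a filter at 5 RPKM, 62 and 2 on untransformed RPKM, and 2 and 0 at an adjusted p of at most 0.01. With a pseudocount of 10, 46 genes were called. With the replicate number as a block, 0 genes and 0 members were called there, and 4, 2, 0 and 3 members at 4 h, 18 h, 2 weeks and between 18 h and 4 h, as without it. Retinas of different groups with the same number had a median correlation of deviations of 0.0352 (range −0.329 to 0.698). For other retinas it was 0.00539 (range −0.552 to 0.689). Such wide ranges cannot show whether retinas with the same number share a block. The median ratio of Il12b to Il23a at 4 h was 504, and 1276 in experiment 1 alone. The filter at 5 RPKM left no value for Il23a. The cause of these changes was not tested. Most values of Il23a outside 4 h were 0 or near 1 read, which limits what can be said of it there.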
